A study of Mus musculus with 22 samples.

Results

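The 10 genes described here encode the enzymes that make glucose in the liver and the receptors, adaptors and transcription factor through which insulin and glucagon set that output. They are the enzymes Pck1, Pck2, G6pc, Fbp1 and Pcx, the glucagon receptor Gcgr, the insulin receptor Insr, its adaptors Irs1 and Irs2, and the transcription factor Foxo1. They were taken by gene symbol, as a set chosen with earlier results of these data known, and all of them had a row among the 55401 genes of the hepatocyte data and the 55573 genes of the stellate cell data.

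RNA was sequenced from primary liver cells of wild type C57BL/6 mice on a chow diet, whose age and sex the labels do not give. Hepatocytes, the parenchymal cells of the liver, received a placebo (Con-Hepa, 6 libraries) or the iron chelator DFO at 100 uM (DFO-Hepa, 6 libraries). Hepatic stellate cells, liver pericytes that store vitamin A and make matrix, received a placebo (Con-HSC, 5 libraries) or iron at 100 uM (Fe-HSC, 5 libraries). All groups had 24 h on the plate before a treatment of 24 h in serum-containing medium, and the labels name no added insulin, glucagon or glucocorticoid. Separate animals or cultures are not stated for the libraries of a group, so that p-values cover library-to-library spread, possibly technical.

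Gluconeogenesis builds glucose from lactate, alanine and glycerol: Pcx carboxylates pyruvate to oxaloacetate in mitochondria, Pck1 in the cytosol and Pck2 in mitochondria turn oxaloacetate into phosphoenolpyruvate, Fbp1 removes a phosphate from fructose bisphosphate, and G6pc frees glucose for export. Glucagon, through Gcgr and cyclic AMP, raises transcription of Pck1 and G6pc. Insulin, through Insr, Irs1, Irs2 and the kinase AKT, keeps Foxo1 out of the nucleus and lowers it. In hepatocytes Foxo1 is known to act on G6pc, Pck1, Irs2 and Insr.

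The control regions of these genes are known for short elements that answer to these hormones, and those of 6 members are shown here because they hold such letters or the core letters bound by hypoxia-inducible factor, a factor whose turnover depends on iron. RefSeq (build GRCm38.p6, the mm10 assembly) gave start sites for 9 of the 10 genes, Insr being the one without an entry, and 2 start sites for Pcx. In each, the 250 bases before the start were searched on both strands for ACGTG (hypoxia response core), GTAAACA (FoxO core), CAAAACA (insulin response core), TGACGTCA (full cyclic AMP response element) and TTACGTCA (the form known from Pck1). Capitals mark each match, each sequence is written 5′ to 3′ on the strand of its gene, and bases that the annotation puts in an exon are left out.
Pck1, chr2:173152823-173153047, plus strand: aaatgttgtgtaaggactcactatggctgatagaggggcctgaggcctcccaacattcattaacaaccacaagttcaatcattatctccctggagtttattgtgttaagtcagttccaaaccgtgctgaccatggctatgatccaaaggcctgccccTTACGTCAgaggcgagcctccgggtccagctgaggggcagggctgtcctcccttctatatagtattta
Pck2, chr14:55540016-55540265, plus strand: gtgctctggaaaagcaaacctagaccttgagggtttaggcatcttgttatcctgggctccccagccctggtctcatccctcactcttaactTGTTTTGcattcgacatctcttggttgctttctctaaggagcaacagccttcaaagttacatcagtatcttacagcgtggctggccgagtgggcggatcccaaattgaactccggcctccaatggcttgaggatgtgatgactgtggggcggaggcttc
G6pc, chr11:101367466-101367560, plus strand: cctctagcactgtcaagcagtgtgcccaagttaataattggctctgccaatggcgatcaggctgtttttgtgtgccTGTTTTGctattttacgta
Pcx, chr19:4510222-4510471, plus strand: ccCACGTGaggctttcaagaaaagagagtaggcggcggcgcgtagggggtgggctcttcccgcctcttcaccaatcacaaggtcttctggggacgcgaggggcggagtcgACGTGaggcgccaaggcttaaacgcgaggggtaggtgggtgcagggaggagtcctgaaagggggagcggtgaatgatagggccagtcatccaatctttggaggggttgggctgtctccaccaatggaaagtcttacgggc
Irs1, chr1:82291440-82291689, minus strand: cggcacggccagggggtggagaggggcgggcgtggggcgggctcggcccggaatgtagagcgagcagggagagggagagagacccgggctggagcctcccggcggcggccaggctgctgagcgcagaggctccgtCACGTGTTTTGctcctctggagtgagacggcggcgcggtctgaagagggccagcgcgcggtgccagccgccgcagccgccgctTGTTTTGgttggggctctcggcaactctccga
Irs2, chr8:11008930-11009179, minus strand: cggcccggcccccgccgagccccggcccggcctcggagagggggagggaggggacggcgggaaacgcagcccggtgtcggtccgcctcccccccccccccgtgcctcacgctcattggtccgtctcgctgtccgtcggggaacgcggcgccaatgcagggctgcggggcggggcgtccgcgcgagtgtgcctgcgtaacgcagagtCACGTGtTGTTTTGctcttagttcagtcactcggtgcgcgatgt

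TTACGTCA began 93 bases before the Pck1 start, and 0.445% of all 32817 RefSeq windows of this length hold it on either strand. CAAAACA, read as TGTTTTG on the strand shown, lay 159 bases before the Pck2 start, 174 before the G6pc start, 111 and 32 before the Irs1 start and 37 before the Irs2 start, and 5.56% of windows hold it. ACGTG lay 140 bases before the upstream Pcx start, and as the palindrome CACGTG, which reads ACGTG on both strands, at the far end of the same Pcx window and at 115 bases in Irs1 and 44 in Irs2. In Irs1 the palindrome and the first TGTTTTG share letters. ACGTG occurs in 16.6% of windows, GTAAACA in 3.16% and TGACGTCA in 1.55%. The windows of Fbp1, Gcgr, Foxo1 and the second Pcx start held none of the 5 motifs. A match is a description of these letters and does not show that a factor binds there.

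Depth ranged from 19342490 to 41839154 counts in hepatocyte libraries, and from 12058226 to 32067635 counts in those of stellate cells. Among stellate cell libraries, Con-HSC 3, Fe-HSC 3 and Fe-HSC 5 stood apart in the mean exonic length of the gene behind a count, which was 7.23, 4.27 and 4.02 kb against 5.16 to 5.69 kb in the other 7, and results for the 10 genes in stellate cells are therefore given with and without them. In hepatocytes this length ran from 4.73 kb (DFO-Hepa 6) to 5.36 kb (DFO-Hepa 1). The hepatocyte cultures held all 14 hepatocyte markers, at a summed 15385 to 16841 CPM (counts scaled to 1e+06 per library, TMM-normalised) in controls and 16348 to 17883 with DFO; 4 rose, albumin (Alb) among them, and 7 fell, including Hnf4a (log2 change -0.92) and Serpina1a (-0.76). Stellate cultures had summed CPM of 12 stellate markers of 10872 to 13365 in controls and 7977 to 10739 with iron; 4 of the 12 fell, and 11 without the 3 libraries. Markers of other cells were present too, and 13 of 13 tested macrophage markers rose with iron, from a summed 196 to 273 CPM to 2195 to 3522 CPM (202 to 285 and 2279 to 3207 CPM in the 7 libraries, again 13 of 13). Endothelial markers rose in 6 of 12 cases (122 to 257 and 266 to 636 CPM), and in 12 of 12 in the 7 libraries (127 to 181 and 586 to 663 CPM). Of the cholangiocyte markers 2 of 4 tested rose (111 to 164 and 227 to 822 CPM). In the 7 libraries 2 of 5 rose and 1 fell (116 to 171 and 690 to 854 CPM). The 1 lymphocyte marker tested rose in both fits. Of all genes tested, 27.9% were called higher and 30.1% lower in hepatocytes. In stellate cultures these shares were 4.05% and 3.37% over the 10 libraries, and 18.3% and 19.8% over the 7. Albumin in these cultures was 78.5 to 143 CPM in controls and 27.3 to 80.0 CPM with iron (log2 change -1.03, edgeR adjusted p = 0.0766; -1.19, 0.00579, in the 7 libraries).

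Ordered by the authors' FPKM, a level per exonic kilobase, Fbp1 was the highest of the 10 genes in control hepatocytes at 29.2 ± 1.73 (SD, n = 6), followed by Pcx at 19.0 ± 1.23. Insr (9.02), Gcgr (8.40), Irs2 (8.19) and Pck2 (7.91) came next, and each overlapped its neighbour in this order. Foxo1 stood alone at 2.99 ± 0.20 FPKM. Pck1 (1.25), Irs1 (0.508) and G6pc (0.485) were lowest, again with overlap between neighbours, and G6pc rested on 18 to 89 counts per hepatocyte library. Of the phosphoenolpyruvate carboxykinases, the mitochondrial form Pck2 therefore exceeded the cytosolic form Pck1, by a median of 5.97 times within a control library (4.05 to 14.4). In control stellate cultures, normalised separately, the order was Pcx (16.9 FPKM), Irs2 (13.3), Pck2 (6.20), Insr (4.96), Irs1 (2.38), Foxo1 (2.33), Gcgr (0.824), Fbp1 (0.490), Pck1 (0.424) and G6pc (0.126). There, Pcx and Irs2 overlapped, as did Pck2, Insr, Irs1 and Foxo1 with their neighbours in turn, and Gcgr, Fbp1 and Pck1. Without Con-HSC 3, Pcx, Irs2, Pck2 and Insr no longer overlapped with one another.

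The first comparison was that of hepatocytes with and without DFO. Foxo1, Pcx, G6pc, Insr and Fbp1 rose, Pck2 and Gcgr fell, and Pck1, Irs1 and Irs2 did not pass the test. Pck2 was 2.06-fold and Gcgr 1.94-fold lower, and the increases ranged from 1.13-fold (Fbp1) to 1.81-fold (Foxo1). A gene is said to have risen or fallen where edgeR's quasi-likelihood test gave a Benjamini-Hochberg adjusted p under 0.05 over all 15660 genes tested. By that rule 7 of the 10 members were called, 5 higher and 2 lower, where 58% of all tested genes were called (27.9% higher and 30.1% lower). The groups did not overlap for 4 members (Pck2, Pcx, Gcgr and Foxo1), which was also the case for 35.9% of all tested genes. The median log2 change was 0.17 over the members and -0.0012 over all tested genes.

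**Figure D1:**
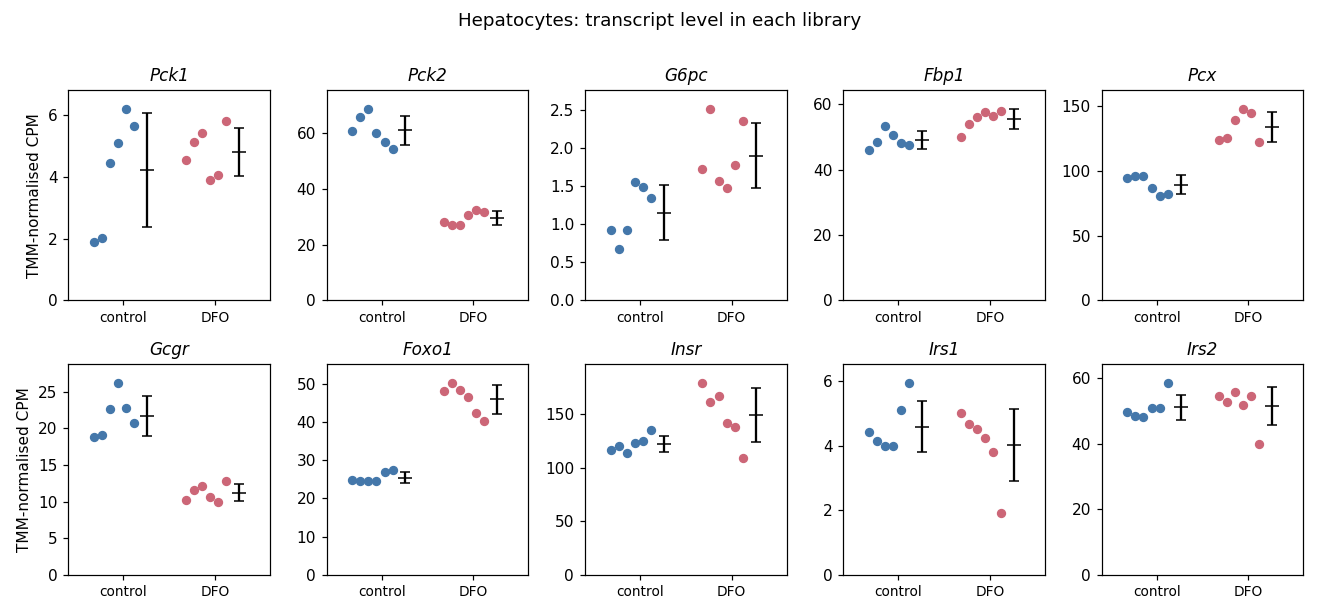
TMM-normalised CPM of each of the 10 genes in each of the 12 hepatocyte libraries (blue, 6 control; red, 6 DFO), on linear axes from 0; the bar beside each group is the mean ± SD. The groups are separate for Pck2 and Gcgr (lower with DFO) and for Pcx and Foxo1 (higher), and they overlap for the other 6 genes.

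Pck2 (ENSMUSG00000040618, chromosome 14, 55540266 to 55551242, plus strand, mm10) had a lowest, median and highest value of 54.3, 60.4 and 68.4 CPM in controls and of 26.9, 29.4 and 32.4 CPM with DFO. Every DFO library lay below every control. The mean fell from 61.0 ± 5.27 to 29.5 ± 2.40 CPM (mean ± SD over 6 libraries), which is -1.05 ± 0.07 (SE) on the log2 scale with an edgeR adjusted p of 5.50e-10. Pck1 (chromosome 2, 173153048 to 173159273, plus strand) ran from 1.9 over a median of 4.78 to 6.17 CPM in controls and from 3.89 over 4.83 to 5.80 CPM with DFO. All 6 DFO values lay inside the control range, in which Con-Hepa 1 and 2 were lowest at 1.9 and 2.0 CPM and the other 4 were at 4.45 or above. Its log2 change was 0.17 ± 0.24 (edgeR adjusted p = 0.556). Within a library, the FPKM of Pck2 over that of Pck1 had a median of 5.97 in controls and 2.56 (2.18 to 3.52) with DFO, and these ranges did not overlap.

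Pcx (chromosome 19, 4510472 to 4621752, plus strand) had 80.7, 90.4 and 96.0 CPM as lowest, median and highest control value and 122, 132 and 147 CPM with DFO. Again no values overlapped. The means were 89.2 ± 6.99 and 133 ± 11.3 CPM, and the log2 change 0.58 ± 0.06 (edgeR adjusted p = 5.49e-07). Fbp1 (chromosome 13, 62864753 to 62888282, minus strand) spanned 45.9 to 53.4 CPM in controls (median 48.3) and 50.1 to 58.0 CPM with DFO (median 56.4). The lowest DFO library lay among the controls, and the change was small at 0.18 ± 0.05 on the log2 scale (edgeR adjusted p = 0.00566). G6pc (chromosome 11, 101367561 to 101377903, plus strand) was scarce throughout, with 0.676, 1.13 and 1.56 CPM as lowest, median and highest control value and 1.47, 1.75 and 2.50 CPM with DFO. The highest controls reached the lowest DFO libraries. It rose by 0.70 ± 0.20 on the log2 scale (edgeR adjusted p = 0.00701), from 1.15 ± 0.36 to 1.9 ± 0.43 CPM.

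Gcgr (chromosome 11, 120530699 to 120538986, plus strand), the G protein-coupled receptor through which glucagon acts on hepatocytes, had 18.8, 21.7 and 26.2 CPM as lowest, median and highest control value and 9.89, 11.1 and 12.8 CPM with DFO. Each DFO library was below each control. The mean fell from 21.7 ± 2.76 to 11.2 ± 1.13 CPM, a log2 change of -0.95 ± 0.09 (edgeR adjusted p = 5.39e-08). Insr (chromosome 8, 3122061 to 3279617, minus strand) spanned 114 to 135 CPM in controls (median 121) and 109 to 179 CPM with DFO (median 152). With DFO, 5 libraries were at 138 CPM or above, over every control, and DFO-Hepa 6 was below every control. Insr changed by 0.29 ± 0.09 on the log2 scale (edgeR adjusted p = 0.0123), and 0.36 without DFO-Hepa 6 (adjusted p = 7.13e-05). The call was lost where limma was run on log2(FPKM + 1) (0.21, adjusted p = 0.0692) or on log2(FPKM + 0.1) (0.23, adjusted p = 0.0709). The FPKM of Insr over that of Gcgr within a library had a median of 1.11 (0.895 to 1.24) in controls and 2.64 (1.63 to 3.33) with DFO, without overlap.

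Irs2 (chromosome 8, 10984681 to 11008458, minus strand), an adaptor that the insulin receptor phosphorylates, had 48.1, 50.2 and 58.4 CPM as lowest, median and highest control value and 39.9, 53.6 and 55.6 CPM with DFO. The groups overlapped, and DFO-Hepa 6 was the lowest of all 12 libraries and Con-Hepa 6 the highest. The log2 change was 0.01 ± 0.07 (edgeR adjusted p = 0.894). Irs1 (chromosome 1, 82233101 to 82291416, minus strand), the other adaptor, had 3.98, 4.27 and 5.93 CPM in controls and 1.91, 4.36 and 5.00 CPM with DFO. The same libraries were lowest and highest, and the log2 change of -0.21 ± 0.17 did not pass (edgeR adjusted p = 0.325). In FPKM, Irs2 exceeded Irs1 by a median of 16.6 times in controls and 17.8 times with DFO. Of the exonic bases of Irs1, 30.9% also belong to Gm9747 on the opposite strand, which had 0 counts in every library, and the strand setting of the counting is not given in the sources used here.

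Foxo1 (chromosome 3, 52268336 to 52353221, plus strand) had 24.5, 24.8 and 27.4 CPM as lowest, median and highest control value and 40.4, 47.6 and 50.3 CPM with DFO. No library of one group reached the other. The mean rose from 25.5 ± 1.34 to 46.1 ± 3.83 CPM, a log2 change of 0.85 ± 0.06 (edgeR adjusted p = 2.11e-09), or 1.81-fold. The genes whose log2 CPM followed that of Foxo1 most closely over the 12 hepatocyte libraries were Abca8a (Pearson r = 0.995), Mindy2 (0.995) and the transferrin receptor Tfrc (0.994). For Gcgr they were Fam92a (0.991), Igfbp4 (0.981) and Serpina10 (0.980). These correlations are descriptions over libraries of 2 groups that differ in both genes.

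**Figure D2:**
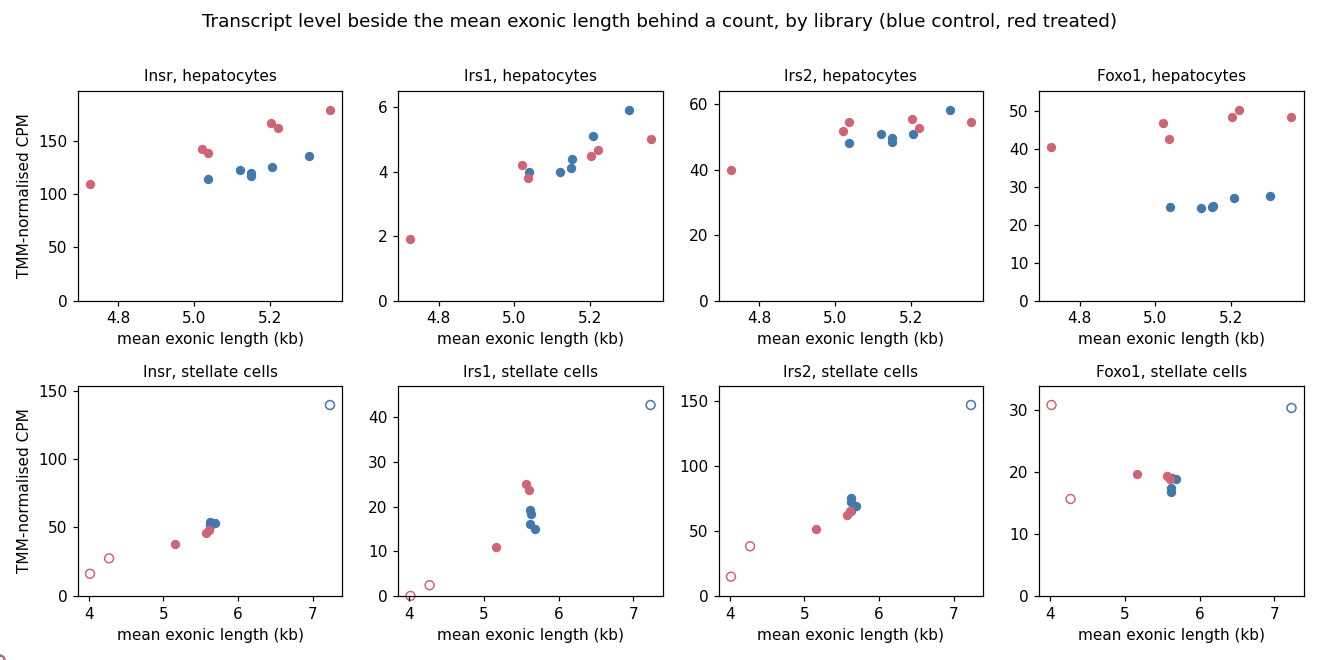
TMM-normalised CPM of Insr, Irs1, Irs2 and Foxo1 (vertical axes) against the mean exonic length in kb of the gene behind a count (horizontal axes), 1 point per library, blue control and red treated; open points are Con-HSC 3, Fe-HSC 3 and Fe-HSC 5. For Insr, Irs1 and Irs2 the stellate library of greatest length (Con-HSC 3) is highest and that of smallest length (Fe-HSC 5) is lowest, and the hepatocyte library of smallest length (DFO-Hepa 6) is lowest.

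The plot of level against exonic length shows a measure that moved with 3 of these long transcripts. DFO-Hepa 6, the hepatocyte library of smallest mean length, was the lowest of the 12 for Insr, Irs1 and Irs2, and DFO-Hepa 1, that of greatest length, was the highest for Insr. With the mean length as a covariate, an alternative added after seeing the data, the log2 change was 0.35 for Insr (adjusted p = 4.73e-09), -0.08 for Irs1 (0.447) and 0.06 for Irs2 (0.252). For Foxo1 the hepatocyte groups did not overlap. Within them, DFO-Hepa 6, of smallest length, was the lowest DFO library (40.4 CPM). Con-Hepa 6, the control of greatest length, was the highest control (27.4 CPM). The highest DFO value was in DFO-Hepa 2 (50.3 CPM) and not in DFO-Hepa 1 (48.4 CPM). With the length covariate the log2 change of Foxo1 was 0.89 (edgeR adjusted p = 3.91e-14). Foxo1 and Pck2 had other orders in stellate cultures. Foxo1 (8665 exonic bases) was high both in Con-HSC 3, of greatest mean length (30.3 CPM), and in Fe-HSC 5, of smallest (30.8 CPM). Pck2 (7806 exonic bases) was highest in Fe-HSC 3 and Fe-HSC 5 (106 and 97.8 CPM), the stellate libraries of smallest mean length, the inverse of the order for Insr. The part of the length measure in these values was not tested. Counts for markers of other cell types stand beside 27.9% of all tested genes called higher and 30.1% called lower with DFO. In the hepatocyte cultures 9 of 13 tested macrophage markers rose and 1 fell, their summed level being 299 to 336 CPM in controls and 347 to 451 CPM with DFO. Stellate markers rose in 4 of 7 cases and fell in 1 (129 to 163 and 178 to 220 CPM), 3 of 12 endothelial markers rose (36.2 to 43.1 and 42.9 to 58.7 CPM), 1 of 4 cholangiocyte markers rose and 2 fell (2144 to 2620 and 1907 to 2118 CPM), and 2 of 2 lymphocyte markers rose (4.08 to 4.59 and 6.23 to 7.05 CPM). The part of these and of the hepatocyte markers in the results was not tested, and in bulk RNA fewer cells of a type and less RNA per cell cannot be told apart.

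Around the members, genes of glucose output and storage moved both ways with DFO: 12 of 27 rose and 11 fell, with a median log2 change of 0.08, against 58% of all genes called. Pdk4, which inhibits pyruvate dehydrogenase, rose by 2.08 ± 0.06 on the log2 scale, from 53.9 ± 2.66 to 227 ± 16.9 CPM. Ugp2 (1.28 ± 0.04), which makes UDP-glucose for glycogen, and the glycogen-targeting phosphatase subunit Ppp1r3c (2.48 ± 0.09) rose as well, and the glycerol phosphate dehydrogenase Gpd1 fell by 1.31 ± 0.05 (edgeR adjusted p at most 1.96e-12 for these 4). Of 20 genes of glucagon and cyclic AMP signalling downstream of the receptor, 7 rose and 2 fell, by small amounts (median 0.12). The coactivator Crtc2 (0.25 ± 0.05), the kinase Sik1 (0.28 ± 0.06), Creb1 (0.31 ± 0.07) and Crebbp (0.29 ± 0.07) rose, whereas the protein kinase A subunits Prkar2a (-0.29 ± 0.08) and Prkaca (-0.15 ± 0.05) fell.

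Of 24 tested genes that carry the insulin signal forward, 12 rose and 4 fell (median 0.16), near the 58% of all genes called, of which 27.9% were higher and 30.1% lower. The receptor Igf1r (1.09 ± 0.14), Prkci (0.41 ± 0.06) and Grb2 (0.26 ± 0.04) were among those that rose, and Gab1, Mapkap1, Akt1 and Mtor were the ones that fell. Among 25 genes that restrain the signal, 13 rose and 7 fell (median 0.17). Ddit4, an inhibitor of mTORC1, rose from 44.8 ± 1.95 to 101 ± 8.21 CPM (1.18 ± 0.06), and the ubiquitin ligase Cblb (0.72 ± 0.06) and Sesn3 (0.68 ± 0.08) rose as well.

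Among 20 tested transcription regulators of gluconeogenesis, 9 rose and 6 fell (median 0.10), against 27.9% and 30.1% of all genes. The Foxo1 relative Foxo3 rose by 0.98 ± 0.06, from 71.8 ± 4.69 to 142 ± 11.1 CPM, the glucocorticoid receptor Nr3c1 by 0.69 ± 0.07 and Klf9 by 0.67 ± 0.07. Hnf4a, a nuclear receptor of hepatocyte identity, fell from 305 ± 9.29 to 161 ± 11 CPM (-0.92 ± 0.05; edgeR adjusted p = 7.34e-11). Of 18 genes known as FoxO targets, 14 rose and 3 fell, against the same 27.9% and 30.1% of all genes, with a median of 0.34. Pdk4 (above), Ccng2 (1.40 ± 0.05) and Bcl6 (1.31 ± 0.06) rose, Angptl4 (-0.95 ± 0.05), Mttp and Sod2 fell, and Cited2 did not pass. Pdk4, Sesn1, Sesn3, Klf15 and Ppargc1a of this list also stand on the other lists given here. Of the members named above as acted on by Foxo1, G6pc (0.70) and Insr (0.29) passed the test. Pck1 (0.17) and Irs2 (0.01) did not.

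**Figure D3:**
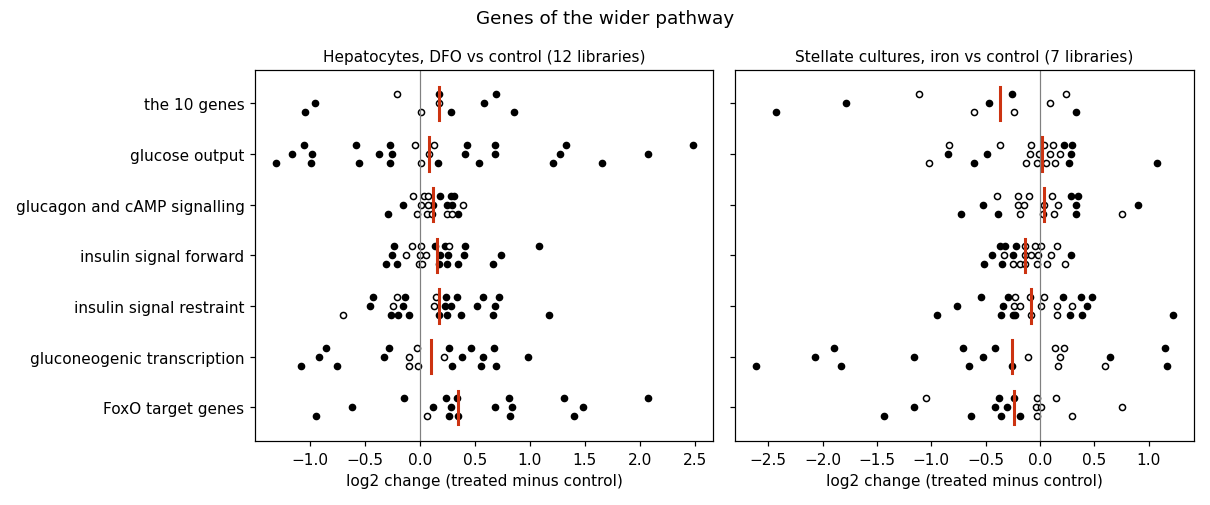
Log2 change (horizontal axes, treated minus control) of the 10 genes and of the tested members of 6 wider lists, hepatocytes on the left and the 7 stellate libraries on the right; filled points passed the edgeR test, open points did not, and red lines are medians. In hepatocytes the FoxO target list has 14 filled points above 0 and 3 below, and the other lists have filled points on both sides.

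The second comparison was that of stellate cultures with and without iron. As given above, macrophage markers rose with iron in these cultures, some endothelial and cholangiocyte markers rose too, and some stellate markers fell. The part of these shifts in the results for any of the 10 genes was not tested. Over all 10 libraries none of the 9 members tested passed edgeR's test, where 7.42% of 15502 genes did (4.05% higher and 3.37% lower). Without Con-HSC 3, Fe-HSC 3 and Fe-HSC 5, Pck2 rose and Pcx, Gcgr and Insr fell. G6pc was called lower as well, but its being tested at all depended on its higher control counts. With G6pc, 5 of 10 members were called, against 38.1% of 16287 genes (18.3% higher and 19.8% lower). At an unadjusted edgeR p under 0.05, 5 of the 9 passed in the 10 libraries and 7 of 10 in the 7. The share of all genes at that threshold is not given here, so these counts cannot be set against it. In the 10 libraries, after adjustment, DESeq2 called 3 members (Pck2, Pcx and Gcgr), against 2924 of 15104 genes. Limma-voom with quality weights called 4 (these and Fbp1), against 6319 of 15502 genes. The groups did not overlap for 3 members in the 10 libraries (Pck2, Pcx and Insr; 21.9% of all tested genes) and for 6 in the 7 libraries (these with G6pc, Gcgr and Irs2; 43.8% of all). G6pc was below the filter on low counts in the 10-library fit, and it passed that filter in the 7 libraries only through controls. The tallies for the 7 libraries include G6pc, so they depend in part on that filter. The median log2 change was -0.83 over the 9 members and -0.06 over all genes in the 10 libraries, and -0.36 and 0.0064 in the 7.

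**Figure D4:**
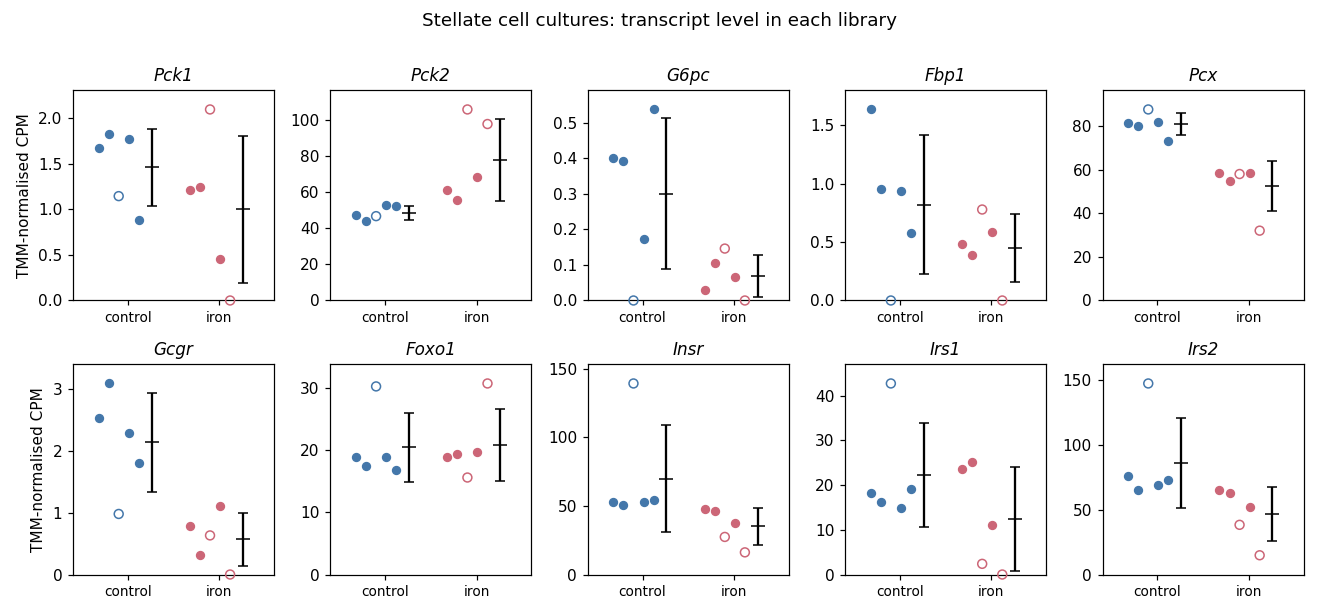
TMM-normalised CPM of each of the 10 genes in each of the 10 stellate culture libraries (blue, 5 control; red, 5 iron), on linear axes from 0; open points are Con-HSC 3, Fe-HSC 3 and Fe-HSC 5, and the bars are the mean ± SD of all 5 libraries of a group. Pck2 lies higher and Pcx and Insr lie lower with iron without overlap, and the open points are the most distant ones for Insr, Irs1 and Irs2.

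Pck2, the mitochondrial carboxykinase, measured 47.6, 43.8, 46.8, 52.7 and 52.2 CPM in Con-HSC 1 to 5 and 61.3, 55.6, 106, 68.5 and 97.8 CPM in Fe-HSC 1 to 5. Each iron library was above each control, and Fe-HSC 3 and 5 were the highest. The change came to 0.68 ± 0.21 on the log2 scale (edgeR adjusted p = 0.0755), and 0.33 ± 0.09 in the 7 libraries (adjusted p = 0.0127). With the mean exonic length as a covariate in edgeR it was 0.33 (adjusted p = 0.489) in the 10 libraries and 0.24 (0.0463) in the 7. With DFO in hepatocytes Pck2 had fallen, and the difference between the comparisons was not tested, since treatments, cells and normalisation differ.

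Pcx measured 81.6, 80.1, 87.7, 81.9 and 73.4 CPM in Con-HSC 1 to 5 and 58.6, 55.0, 58.1, 58.5 and 32.1 CPM in Fe-HSC 1 to 5. Each iron library was below each control, with Fe-HSC 5 far below the other 4. Its change was -0.63 ± 0.19 (log2 scale; edgeR adjusted p = 0.0717), -0.50 without Fe-HSC 5 (0.0133) and -0.47 ± 0.07 in the 7 libraries (0.000173).

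The other enzymes were scarce in these cultures. Pck1 had 1.67, 1.83, 1.14, 1.78 and 0.883 CPM in Con-HSC 1 to 5 and 1.21, 1.24, 2.09, 0.455 and 0 CPM in Fe-HSC 1 to 5, and the groups overlapped (log2 change -0.52 ± 0.76, edgeR adjusted p = 0.676; in the 7 libraries -0.61 ± 0.38, 0.239). Fbp1 had 1.64, 0.959, 0, 0.940 and 0.576 CPM in controls and 0.484, 0.391, 0.779, 0.585 and 0 CPM with iron, also with overlap (-0.87 ± 0.90, adjusted p = 0.552; in the 7 libraries -1.11 ± 0.45, 0.0667, and -1.31, 0.0284, without Con-HSC 5). G6pc had 13, 9, 0, 5 and 14 counts in Con-HSC 1 to 5 and 1, 3, 3, 1 and 0 counts in Fe-HSC 1 to 5. In the 7 libraries its 5 to 14 control counts stood against 1 to 3 with iron. That is a log2 change of -2.43 ± 0.71 (edgeR adjusted p = 0.0167). G6pc reached the filter on low counts there only through Con-HSC 1, 2 and 5, so its being tested already depended on higher control counts. Leaving out any 1 of these put it below the filter, and it was not tested in either limma fit. The edgeR call was also lost without Fe-HSC 1 (-1.98, adjusted p = 0.0925) and kept with no filter (-2.43, 0.0455). A count of 0 allows up to 3 counts, or 0.245 CPM in Con-HSC 3 and 0.271 CPM in Fe-HSC 5, for counting error only, and Fe-HSC 5 had 0 counts for 5 members (Pck1, G6pc, Fbp1, Gcgr and Irs1).

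Gcgr had 2.53, 3.09, 0.981, 2.30 and 1.80 CPM in Con-HSC 1 to 5 and 0.786, 0.320, 0.633, 1.11 and 0 CPM in Fe-HSC 1 to 5. Only Con-HSC 3 fell within the range of the iron libraries. The log2 change was -1.89 ± 0.72 (edgeR adjusted p = 0.125), -1.62 without Fe-HSC 5 (0.0357) and -1.79 ± 0.38 in the 7 libraries (0.00244), or 3.45-fold lower there. Markers of hepatocytes, the cells in which Gcgr, G6pc and Fbp1 are chiefly expressed, moved the same way. In the 7 libraries 13 of 14 fell, against 19.8% of all genes, with a median log2 change of -1.54 and albumin at -1.19. In the 10 libraries 2 of 14 fell, against 3.37% of all genes. Their summed level over the 10 libraries was 217 to 333 CPM in controls and 70.5 to 168 CPM with iron, and none was at 0 in all libraries of a group. The part of these markers in the results for Gcgr, G6pc and Fbp1 was not tested.

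Insr measured 52.9, 50.7, 139, 53.0 and 54.0 CPM in Con-HSC 1 to 5 and 48.1, 46.3, 27.4, 37.6 and 16.2 CPM in Fe-HSC 1 to 5. Every iron library was below every control, and the values farthest from their group were those of Con-HSC 3 and Fe-HSC 5. The change was -0.99 ± 0.38 on the log2 scale (edgeR adjusted p = 0.123), and -0.26 ± 0.09 in the 7 libraries (0.0334). With the mean exonic length as a covariate it was -0.08 (adjusted p = 0.97) in the 10 libraries and -0.13 (0.183) in the 7, and leaving out any 1 of the 7 other than Fe-HSC 1 ended the call (adjusted p 0.0538 to 0.0977).

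Irs2 measured 75.7, 65.1, 147, 69.0 and 72.4 CPM in Con-HSC 1 to 5 and 65.3, 62.4, 38.2, 51.8 and 14.8 CPM in Fe-HSC 1 to 5. The groups met at 65.1 and 65.3 CPM. Irs2 changed by -0.88 ± 0.38 on the log2 scale (edgeR adjusted p = 0.163), and -0.24 ± 0.09 in the 7 libraries (0.0504), where it was -0.29 without Fe-HSC 1 (0.0411). Irs1 measured 18.3, 16.2, 42.7, 15.0 and 19.2 CPM in Con-HSC 1 to 5 and 23.6, 25.1, 2.39, 11.1 and 0 CPM in Fe-HSC 1 to 5. Iron libraries were both the lowest and, apart from Con-HSC 3, the highest. Its log2 change was -0.83 ± 0.91 (edgeR adjusted p = 0.573) over 10 libraries and of the other sign over 7 (0.23 ± 0.21, 0.412), where it was 0.52 without Fe-HSC 4 (adjusted p = 0.0010) and 0.60 with the length covariate (0.00221).

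Foxo1 measured 19.0, 17.4, 30.3, 18.9 and 16.8 CPM in Con-HSC 1 to 5 and 18.9, 19.3, 15.6, 19.7 and 30.8 CPM in Fe-HSC 1 to 5. Each group had 1 library far above the rest, Con-HSC 3 and Fe-HSC 5. The log2 change was 0.03 ± 0.25 (edgeR adjusted p = 0.953), and 0.09 ± 0.09 in the 7 libraries (0.460).

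**Figure D5:**
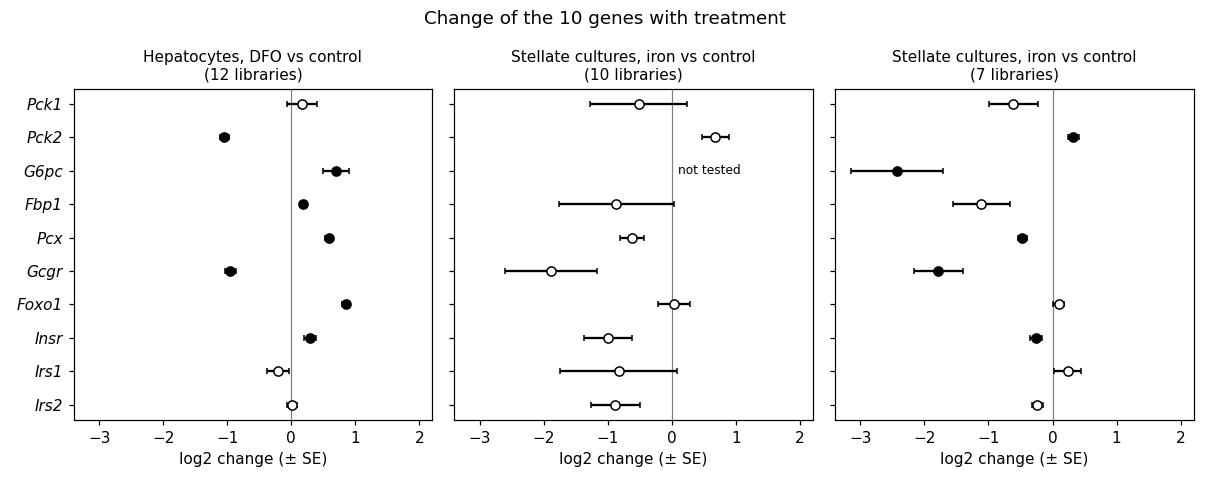
Log2 change ± SE (horizontal axes, treated minus control) of the 10 genes in hepatocytes with DFO (12 libraries) and in stellate cultures with iron (10 libraries, and 7 without Con-HSC 3, Fe-HSC 3 and Fe-HSC 5); filled points passed the edgeR test. Pck2 is at -1.05 in hepatocytes and at 0.68 and 0.33 in stellate cultures, and the error bars of the 10-library fit are wider than those of the 7.

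Of the wider lists, few genes passed over the 10 stellate libraries, where 7.42% of all tested genes did (4.05% higher and 3.37% lower). Gaa, the lysosomal glycogen-degrading enzyme, fell by 0.79 ± 0.17 (edgeR adjusted p = 0.0168), 1 of 21 genes of glucose output, and Enpp1, an inhibitor of the insulin receptor, rose by 1.26 ± 0.26 (0.0155), 1 of 25 genes of insulin restraint. Of 19 transcription regulators Cebpa rose by 1.09 ± 0.19 and Stat3 fell by 1.06 ± 0.21. None of 20 genes of cyclic AMP signalling, 23 of forward insulin signalling and 17 FoxO targets passed edgeR's test. At an unadjusted edgeR p under 0.05 there were 5, 8 and 1, and the share of all genes at that threshold is not given here. The medians were -0.02 (glucose output), -0.45 (cyclic AMP), -0.60 (forward insulin signal), -0.20 (restraint), -0.50 (regulators) and -0.51 (FoxO targets).

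In the 7 libraries, where 18.3% of all genes were called higher and 19.8% lower, 7 of 23 forward genes of the insulin signal fell and 1, Grb2, rose (0.28 ± 0.06), so that the share called was near the 38.1% of all genes. The receptor Igf1r fell from 146 ± 4.89 to 102 ± 12.0 CPM (-0.52 ± 0.08; edgeR adjusted p = 0.000258), and Shc1 (-0.35 ± 0.06) and Gab1 (-0.37 ± 0.08) fell with it. Of 25 restraint genes 7 rose and 8 fell, led by Enpp1 (1.22 ± 0.13), Socs3 (-0.76 ± 0.11), Sh2b3 (0.48 ± 0.08) and Grb14 (-0.95 ± 0.15). Of 17 FoxO targets 9 fell and none rose, against the same 19.8% and 18.3% of all genes, at a median of -0.24; those of smallest p were Sod2 (-0.64 ± 0.09), Klf15 (-1.16 ± 0.21), Txnip (-0.38 ± 0.07) and Gadd45a (-0.30 ± 0.08). Among 19 regulators 3 rose (Cebpa, Nr4a2 and Nr4a1) and 10 fell, including Stat3 (-0.71 ± 0.08) and Klf9 (-0.65 ± 0.09). Hnf4a, which is also on the list of hepatocyte markers, and the liver-enriched factors Foxa1 and Foxa2 were among those that fell. Of 20 cyclic AMP genes 5 rose and 3 fell (median 0.03), with Adcy5 at -0.73 ± 0.12, Pde3b at 0.90 ± 0.16, Prkar2a at 0.33 ± 0.07 and Crtc3 at -0.38 ± 0.09. Of 22 genes of glucose output 5 rose and 3 fell (median 0.01), led by Gaa (-0.85 ± 0.07), Ugp2 (-0.49 ± 0.09), Slc16a7 (1.07 ± 0.26) and Ppp1r3b (-0.61 ± 0.18).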

How the data were processed

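For each library the deposited tables give whole read counts by Ensembl gene, FPKM values that the authors made from them, and the exonic length of each gene; every FPKM above 1 lay within 1% of the count per exonic kilobase and per 1e+06 counts. Per the submitters' processing notes, reads were handled with HISAT2 2.0.1 and cutadapt 1.9.1 on build mm10; how genes were counted, on which annotation and with or without strand, is not given in the sources used here. A small RNA kit and 4 biological replicates are named in the labels' protocols, against 6 or 5 libraries listed. No libraries were duplicates (lowest chi-square per degree of freedom between 2 libraries, 3.44 for hepatocytes and 5.59 for stellate cells).

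From the counts, each cell type was fitted alone with edgeR 4.0.16 in R 4.3.3 (TMM normalisation, filterByExpr, glmQLFit and glmQLFTest, two-sided), with p-values adjusted by Benjamini-Hochberg over all genes tested and 0.05 as the threshold. The SE of a log2 change is the one that the F value implies, and CPM are TMM-normalised counts scaled to 1e+06 per library. The test was tested on simulated data. Alternatives were other scaling, no filter on low counts, DESeq2 1.42.0, limma 3.58.1 on log2 FPKM of genes reaching 0.5 FPKM with a pseudocount of 1 or 0.1, voom with quality weights, a robust prior, a replicate block and each library left out. A pair of alternatives, a length covariate and the repeats on 7 stellate libraries, were added after seeing the data. The members, the wider lists and the libraries left out were chosen with earlier results of these data known. Every member is named. From each wider list the text names up to 4 called genes of smallest p and those that moved against the rest, and for Foxo1 and Gcgr the 3 genes of mean FPKM 1 or above with the highest Pearson correlation of log2 CPM (prior count 2). Some genes that this rule takes are counted but not reported here by name.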

Additional observations from a re-analysis of the deposited data

Results flagged for a closer look

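In 8 of 40 combinations of gene and group, 1 library lay far from the others of its group, where chance alone flags about 1 in 20. Con-HSC 3 accounted for 4 of them. There Insr was 139 CPM against 50.7 to 54.0 CPM in the other controls, Irs1 42.7 CPM against 15.0 to 19.2, Irs2 147 CPM against 65.1 to 75.7, and Foxo1 30.3 CPM against 16.8 to 19.0. Fe-HSC 5 accounted for another 2, Pcx being the lowest of its group at 32.1 CPM (the others 55.0 to 58.6) and Foxo1 the highest at 30.8 CPM (the others 15.6 to 19.7). In hepatocytes Irs2 was 58.4 CPM in Con-Hepa 6 against 48.1 to 50.9 in the other controls, and 39.9 CPM in DFO-Hepa 6 against 51.8 to 55.6 in the other DFO libraries. The mean exonic length behind a count, 7.23 kb in Con-HSC 3, 4.02 kb in Fe-HSC 5 and 4.73 kb in DFO-Hepa 6, was the greatest or smallest of its cell type in these libraries. Its part in these values was not tested.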

How the results depend on the processing

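In hepatocytes 9088 genes were called (8145 to 10311 over 21 alternatives) and 7 members (6 to 7), and Insr under limma on FPKM was the one member to lose its call. Irs2, not called, turned sign at -0.026 and -0.030 (limma, pseudocount 1 and 0.1) and at -0.0049, -0.0054, -0.0024, -0.0107 and -0.0075 without Con-Hepa 2 or 3 or DFO-Hepa 1, 3 or 5 (highest 0.0724, without DFO-Hepa 6). In the 10 stellate libraries 1151 genes and 0 members were called. DESeq2 called 2924 and 3, voom with quality weights 6319 and 4, the 7 libraries 6212 and 5, and leaving out 1 library 605 to 2462 and 0 to 2, the highest both without Fe-HSC 5. The counts without Con-HSC 1, 2, 4 or 5 or Fe-HSC 4 were 605, 619, 638, 685 and 686. Irs1 turned to 0.35 (voom), 0.44 (length covariate) and 0.23 (7 libraries), and Foxo1 to -0.03, -0.0034, -0.04 and -0.15 without Con-HSC 2, 4 or 5 or Fe-HSC 5 (highest 0.204, without Con-HSC 3). In the 7 libraries 5 members were called, 3 under either limma fit, 6 with DESeq2, no filter or a robust prior (Irs2 added), 7 with voom (Fbp1 and Irs1 added), and 3 to 5 with 1 library left out (6212 genes, then 5069 to 6626). Both limma fits raised the share of higher calls from 48.1% to 59.2% and 59.0%. Over all 10 libraries, limma on log2(FPKM + 0.1) moved the median of all genes to -0.11.

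Libraries of the same number did not deviate together (correlation of deviations -0.245 to -0.0027 in hepatocytes and -0.320 to 0.120 in stellate cells). Of these libraries, 0 correlated best with their own number. Whether they share an animal or a culture is not stated, and so few libraries per group cannot decide it. With the replicate block 8235 hepatocyte genes were called, 175 in the 10 stellate libraries (median of all genes -0.15) and 3 members in the 7, where G6pc (-2.31, adjusted p = 0.0590) and Insr (-0.26, 0.0896) were not called. Counts of 18 to 89 (G6pc, hepatocytes) and 0 to 14 (stellate cells) limit the precision of that gene.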
